A study of Mus musculus with 35 samples.

Results

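The 2 windows described here, chromosome 4 from 145000001 to 148000000 and chromosome 13 from 65000001 to 68000000 (GRCm38), hold rodent clusters of KRAB zinc finger genes. They were set by coordinates in a genome-wide table of chromatin accessibility in tiles of 2 kb, with earlier results of these data known. They make up 3000 tiles, 1500 in each window, of the 1362779 tiles in all. RefSeq placed 219 genes in them, 92 on chromosome 4 and 127 on chromosome 13, and gave a transcription start inside the window for 91 (29 and 62). The zinc finger list, symbols starting with Zfp, Rsl or Rex2, held 45 genes (17 and 28), of which 37 had such a start (13 and 24). A promoter tile is a tile with an annotated start, a gene body tile overlaps a gene without holding a start, and an intergenic tile does neither. The chromosome 4 window had 33 promoter, 993 gene body and 474 intergenic tiles, and the chromosome 13 window 58, 751 and 691.

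KRAB zinc finger proteins bind DNA, often that of retroelements, through arrays of zinc fingers, and their KRAB domain recruits the corepressor Trim28. Trim28 brings the histone H3 lysine 9 methyltransferase Setdb1, HP1 proteins and DNA methylation to the bound site. The genes multiplied in rodents by local duplication, so neighbours in a cluster share long stretches of sequence. Rsl1, in the chromosome 13 window, is known from mouse liver as the regulator of sex-limited expression, which represses male-specific genes. Reads from such duplicated sequence may fit more than 1 place in the genome, and what a pipeline does with them sets whether a tile has any value.

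The assay was ATAC-seq, on 10000 cells and with 13 PCR cycles per library: a transposase inserts sequencing adapters where DNA is open. The 4 lines were mouse embryonic stem cells: TET_KO, which lacks the 5-methylcytosine oxidases Tet1, Tet2 and Tet3 (triple knockout); TET_WT, its parental wild-type line; DNMT_KO, which lacks the cytosine methyltransferases Dnmt1, Dnmt3a and Dnmt3b (triple knockout); and DNMT_WT, the parental line of that knockout. Each was taken in the stem cell state in 2i and Lif (D0) and on days 1 and 2 of the change to epiblast-like cells (D1, D2). Groups had 3 libraries each, and TET_KO had 2 at D2 (replicates 1 and 3). The labels do not say whether a knockout line was 1 clone or whether replicates were separate cultures, so p-values measure the spread between libraries, which may be technical. In these bulk libraries, fewer open cells and less opening per cell cannot be told apart.

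The libraries held 4172681 to 23686796 reads in tiles. In the windows they held 2081 to 18841 reads on chromosome 4 and 1318 to 14415 on chromosome 13, with a library median of 3 to 37.5 reads in the tiles tested there, so single tiles were shallow. The targeted genes were checked by seeking tiles where all TET_KO libraries lay 2 log2 units or more under all TET_WT libraries, and likewise for DNMT_KO. At D1 1 of 42 tiles of Tet1 and 1 of 48 of Tet3 did so (0, 0 and 0 reads in TET_KO against 12, 5 and 16 in TET_WT; 1, 0 and 1 against 12, 7 and 9), against 0.0148% of all tiles. At D0 and D2 no tile of Tet1 or Tet3 did so, nor any tile of Tet2, Dnmt1, Dnmt3a or Dnmt3b on any day, so accessibility checked neither knockout label. Summed reads around 6 naive-state genes were lower at D2 than at D0 in every line, for example 217.9 to 231.3 against 349.7 to 389.2 RPM (reads scaled to a total of 1000000 on autosomes and X) in TET_KO, and 6 formative genes were higher, 178.4 to 184.7 against 128.6 to 138.8. The 5 fibroblast (feeder cell) genes stood at 108.9 to 160.9 RPM over all groups. The D1 libraries differed from the others in how they were processed, since only they held mitochondrial reads (5.62 to 46.8% of a library). The TET and DNMT families differed at D0 and D2 as well. D1 against another day, and the TET against the DNMT parental line, can therefore not be told apart from processing and are given as values only.

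4 promoter sequences show the range of starts in the chromosome 13 window. Zfp712 had the most accessible promoter tile of the zinc finger list, Zfp85 was called between D2 and D0 in DNMT_WT, and Gm40987 and 2410141K09Rik, genes known by their database names only, had the promoter tiles that were lower in TET_KO on all 3 days. Each is given from 250 bases before to 50 bases from the start, from RefSeq (GRCm38.p6), 5′ to 3′ on the minus strand, with CpG dinucleotides, the sites that Dnmt enzymes methylate, in capitals. Zfp712 lies at chr13:67061121-67061420, Zfp85 at chr13:67755153-67755452, Gm40987 at chr13:65990947-65991246 and 2410141K09Rik at chr13:66441069-66441368.
Zfp712: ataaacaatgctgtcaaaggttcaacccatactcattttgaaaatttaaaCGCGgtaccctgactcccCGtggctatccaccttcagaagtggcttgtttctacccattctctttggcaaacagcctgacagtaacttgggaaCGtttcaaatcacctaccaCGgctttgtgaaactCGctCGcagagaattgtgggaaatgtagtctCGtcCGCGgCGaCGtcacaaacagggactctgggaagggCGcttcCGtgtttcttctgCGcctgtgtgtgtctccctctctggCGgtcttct
Zfp85: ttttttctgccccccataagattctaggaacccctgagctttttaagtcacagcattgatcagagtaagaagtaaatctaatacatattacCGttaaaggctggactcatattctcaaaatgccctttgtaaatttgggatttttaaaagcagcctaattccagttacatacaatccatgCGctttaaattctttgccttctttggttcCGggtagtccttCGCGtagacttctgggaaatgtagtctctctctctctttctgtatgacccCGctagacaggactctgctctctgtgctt
Gm40987: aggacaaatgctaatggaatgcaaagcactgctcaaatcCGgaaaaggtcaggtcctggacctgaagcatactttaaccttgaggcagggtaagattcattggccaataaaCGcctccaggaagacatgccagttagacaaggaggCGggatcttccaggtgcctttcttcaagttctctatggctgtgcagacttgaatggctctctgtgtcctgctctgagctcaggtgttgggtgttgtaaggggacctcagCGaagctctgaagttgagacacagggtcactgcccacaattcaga
2410141K09Rik: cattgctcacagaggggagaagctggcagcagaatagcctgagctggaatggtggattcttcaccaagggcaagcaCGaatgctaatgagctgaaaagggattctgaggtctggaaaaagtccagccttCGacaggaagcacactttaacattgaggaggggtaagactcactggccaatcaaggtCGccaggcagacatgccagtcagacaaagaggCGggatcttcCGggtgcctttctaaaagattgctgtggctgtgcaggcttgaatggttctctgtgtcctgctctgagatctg
Zfp712 had 16 CpGs and shared no stretch of 31 bases with another RefSeq promoter. Zfp85 had 6 CpGs, with 5.19% of its 31-base words found in the promoters of Zfp273 or Zfp708. The Gm40987 and 2410141K09Rik promoters, 4 and 5 CpGs, shared an identical run of 20 bases with each other. In 2410141K09Rik, 48.9% of the 31-base words stood in the promoters of 14 other genes of the windows, Zfp640 and 13 genes with Gm names, against 0% in Gm40987.

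Many tiles of both windows had no read at all in any D0 or D2 library. On chromosome 4 they numbered 645 of 1500 (43.0%), on chromosome 13 542 of 1500 (36.1%), and over all autosomes and X, the windows included, 89669 of 1316897 (6.81%). Of these tiles, 289 and 402 did hold reads at D1. Those D1 reads made up 29.2% of all D1 reads of the chromosome 4 window and 8.20% of the chromosome 13 window, against 1.28% over all autosomes and X. The empty tiles came in long stretches. The longest was 150 kb on chromosome 4 (145900001 to 146050000) and 100 kb on chromosome 13 (66044001 to 66144000), and stretches over 20 kb numbered 12 (390 tiles) and 9 (213 tiles). The handling of reads with several matches is not given in the sources here, so an empty tile cannot be read as closed chromatin.

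Promoter tiles were affected least and intergenic tiles most. On chromosome 4, 7 of 33 promoter tiles (21.2%), 40.6% of gene body tiles and 49.6% of intergenic tiles were empty at D0 and D2. On chromosome 13 the shares were 10 of 58 (17.2%), 30.1% and 44.3%, and over all autosomes and X 2.88%, 3.29% and 10.3%. The richest of the tiles read at D1 only was intergenic, chromosome 4 from 147416001 to 147418000, with 24 to 69 reads in each D1 library. A pair of neighbouring tiles inside Zfp992 and the pseudogene Vmn2r-ps16 (146454001 to 146458000) held 382 and 413 D1 reads in all. On chromosome 13 the richest lay inside Zfp729b (67608001 to 67610000, 108 reads).

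**Figure D1:**
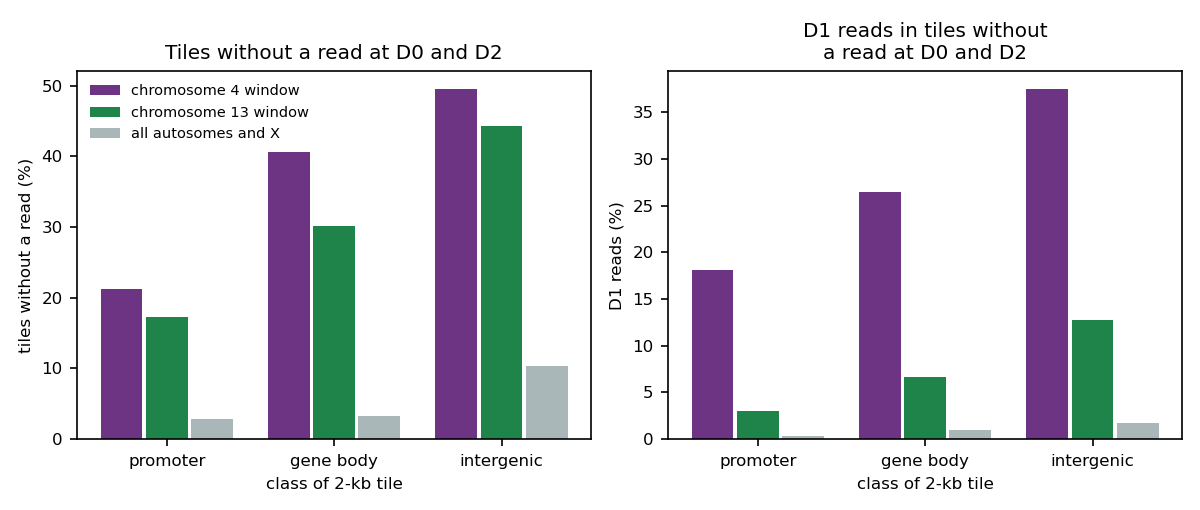
Left, the percent of 2-kb tiles without a read in any D0 or D2 library, and right, the percent of D1 reads that fell in those tiles, by class of tile, for the chromosome 4 window, the chromosome 13 window and all autosomes and X (windows included). Bars are shares of all tiles or reads of the class, with no replicate error; intergenic tiles of the windows reach 49.6% and 44.3%, against 10.3% over the genome.

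Within the tiles read at D1 only, the knockout lines and their parents could be compared at that day. On chromosome 13 they held 75.7, 87.0 and 76.4 RPM in TET_KO against 61.7, 47.0 and 52.6 in TET_WT (79.7 ± 6.3 and 53.8 ± 7.4, SD, n = 3 each). The groups did not overlap, and a 2-sided exact permutation test gave p = 0.1, the smallest that 3 against 3 libraries allow. Of these sums, the tiles from 65400001 to 66800000 held 53.3 ± 3.7 RPM in TET_KO and 46.9 ± 6.8 in TET_WT. Most of the difference thus lay in the rest of the window. Over the whole chromosome 13 window, the tiles read at D1 only held 36.0 ± 5.4 RPM in DNMT_KO and 37.3 ± 3.3 in DNMT_WT (exact permutation p = 0.8). On chromosome 4 TET_KO held 296.8 ± 34.8 and TET_WT 320.0 ± 42.7 (exact permutation p = 0.5), and DNMT_KO 229.4 ± 47.6 and DNMT_WT 284.5 ± 2.0 (exact permutation p = 0.1).

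By the mean over the 12 groups, the zinc finger promoters of the windows were of low to middling accessibility. Those of chromosome 4 stood far below those of chromosome 13 on this mean. The mean log2 RPKM over the 12 groups had a median of -0.15 over the 37 genes, the 49.7th percentile of all genes with a start. It was -2.02 for the 13 genes of chromosome 4 (percentile 6.85) and 0.11 for the 24 of chromosome 13 (percentile 54.2). The 304 Zfp genes elsewhere had a median of 0.95 (percentile 72.4) and 17274 protein-coding genes 0.54 (percentile 62.6). The promoters also held fewer CpGs, with a median of 5 per 300 bases on chromosome 4 and 8 on chromosome 13, against 15 for Zfp genes elsewhere and 14 for protein-coding genes. Empty tiles are part of these levels: Zfp981, Zfp993, Zfp979 and Rex2, all on chromosome 4 and named after their values were seen, had no promoter read at D0 or D2, while Zfp981 had 345 and Zfp993 158 reads over the D1 libraries. At D1 the zinc finger medians were 1.59, 1.07, 0.86 and 1.15 RPM on chromosome 4 in TET_KO, TET_WT, DNMT_KO and DNMT_WT. On chromosome 13 they were 2.33, 1.86, 1.43 and 1.59, in the same order. At D0 they were 0.48, 0.54, 0.35 and 0.31 on chromosome 4 and 2.02, 1.71, 1.49 and 1.06 on chromosome 13. The gap was narrower at D1, so the low mean on chromosome 4 cannot be read as closed chromatin.

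The 10 highest zinc finger promoters were those of Zfp712, Zfp748, Zfp984, Zfp58, Zfp85, Zfp459, Zfp953, Zfp982, Zfp595 and Zfp874b, with 8 of the 10 on chromosome 13. Zfp712 (tile chr13:67060001-67062000) stood at 1.23 log2 RPKM, the 80.5th percentile of all promoters. It held 3.68 ± 0.43 and 5.29 ± 1.05 RPM at D0 and D2 in TET_KO, 3.57 ± 0.57 and 4.27 ± 1.11 in TET_WT, 3.31 ± 0.88 and 2.99 ± 1.09 in DNMT_KO and 2.87 ± 1.59 and 4.49 ± 1.23 in DNMT_WT (SD, n = 3, and 2 for TET_KO at D2). Zfp748 stood at 0.86 and Zfp984, the highest on chromosome 4, at 0.53. Zfp748 shares its tile with the start of 9430065F17Rik, Zfp459 with Gm33787 and Zfp953 with Gm17039, so these values belong to both genes of each pair. The other 7 lay between 0.28 and 0.41 log2 RPKM. Among the other starts of the windows, 38 genes with Gm or Rik names had a median of -1.05 log2 RPKM and 16 further named genes 0.30. The lowest were Rex2 (-3.46) and Zfp979 (-3.41).

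Promoters that shared much of their sequence with another place had low values on chromosome 4. Words of 31 bases were looked for in all other RefSeq promoters, leaving out promoters that overlap on the genome, such as those of Zfp65 and Zfp85os, which share a tile. On chromosome 4 the 5 promoters with 50% or more of their words elsewhere had a median of -3.06 log2 RPKM, the 4 with 10 to 50% of -0.27 and the 4 with under 10% of -0.93. Values did not fall steadily with sharing, and Zfp981 and Zfp993, empty at D0 and D2, were among those 4 with under 10%. On chromosome 13 only Zfp640 had 50% or more (64.1%; -0.55 log2 RPKM), with medians of -0.79 for 3 promoters with 10 to 50% and 0.21 for 20 with under 10%. In Rex2, 97.8% of the words were shared with Zfp600, Zfp979, Zfp980, Zfp982, Zfp985 or Zfp988, and in Zfp600 94.4%, so reads cannot be assigned to either promoter with certainty. For 8 zinc finger genes RefSeq gave no start, and their gene ends were read instead. Zfp978 stood at 1.12 log2 RPKM at its lower end and -1.45 at its upper end, Zfp87 at 0.63 at its upper end and Zfp493 at 0.64 at its lower end. All other ends, those of Zfp990, Zfp992, Zfp991, Zfp369 and Zfp729b included, were below -0.5.

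**Figure D2:**
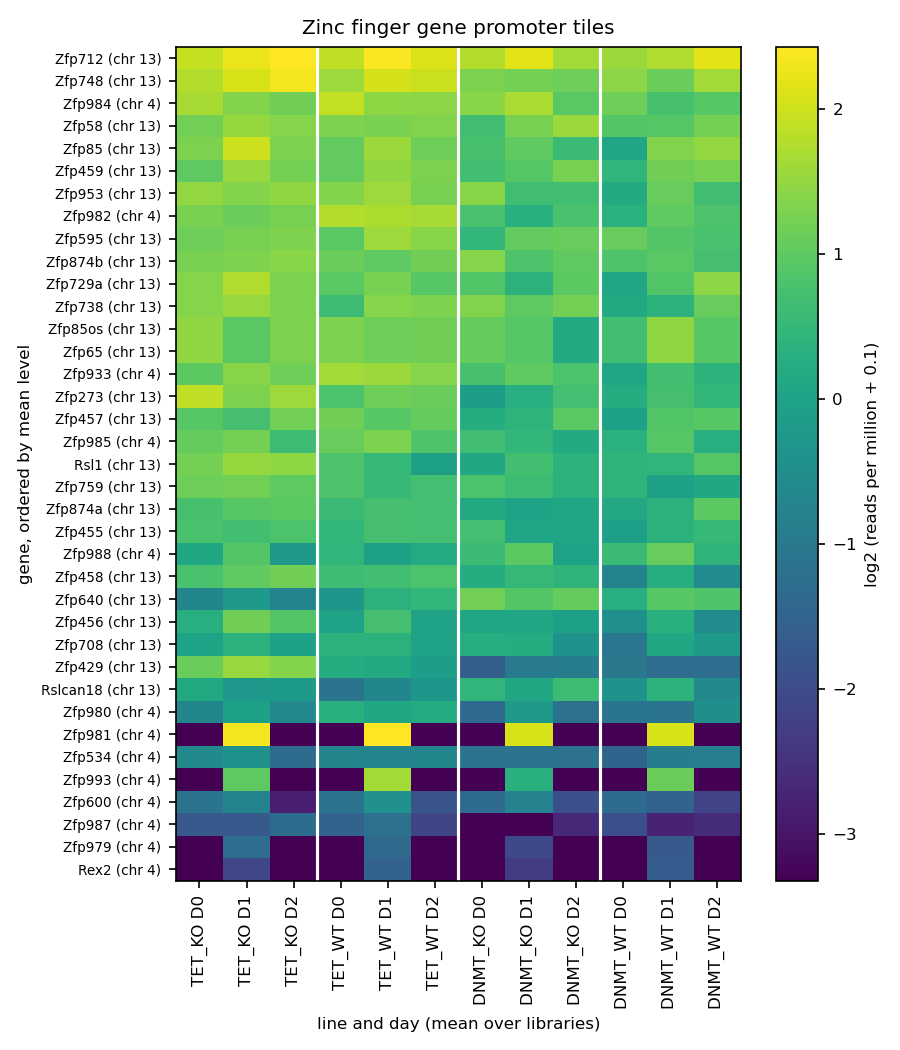
Accessibility at the 37 zinc finger promoters (36 tiles, as Zfp65 and Zfp85os share 1; rows, ordered by mean log2 RPKM, chromosome in brackets) in the 12 groups of line and day (columns), as log2 of RPM plus 0.1, mean over the libraries of a group. Zfp712 is brightest, at 2.87 to 5.29 RPM at D0 and D2, and Zfp981 and Zfp993 have values at D1 only.

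No promoter of the zinc finger list passed the limma test between a knockout line and its parent on any day. The list was made by symbol. It leaves out 10 protein-coding genes with database names and a start on chromosome 13, among them 2410141K09Rik, and 2 on chromosome 4. Whether these encode zinc fingers was not examined. Over the 37 genes, 0 were called in each of the 6 comparisons (limma, adjusted p under 0.05 over 144184 tested tiles), with 2, 3 and 4 at an unadjusted p under 0.05 for TET_KO at D0, D1 and D2 and 5, 2 and 5 for DNMT_KO. Of all tested tiles, 0.178%, 0.112% and 0.111% were called for TET_KO and 0.000694%, 0.0194% and 0.0298% for DNMT_KO, so a count of 0 is near the background. Voom called 1, the Zfp273 promoter (67812001 to 67814000) in TET_KO at D0, named here after its values were seen, and 0 in the other 5. It held 29, 29 and 23 reads, or 3.59 ± 0.57 RPM, in TET_KO and 30, 19 and 22 reads, or 1.64 ± 0.32 RPM, in the deeper TET_WT libraries (1.19 ± 0.41, limma adjusted p = 0.236; 1.22, voom adjusted p = 0.0249). Median log2 changes were 0.14, -0.00 and 0.24 for TET_KO and 0.24, -0.06 and -0.00 for DNMT_KO, against 0.08, 0.06 and 0.06, and 0.00, 0.04 and -0.00, over protein-coding genes. The widest differences were positive ones in TET_KO that did not pass, such as Rsl1 at D2 (1.98 ± 0.53, adjusted p = 0.118) and its neighbour Rslcan18 at D0 (1.95 ± 0.63, adjusted p = 0.201), both named after their values were seen. The median zinc finger promoter held 1.81 ± 0.14, 2.09 ± 0.18 and 2.09 ± 0.03 RPM at D0, D1 and D2 in TET_KO, 1.51 ± 0.15, 1.77 ± 0.33 and 1.61 ± 0.13 in TET_WT, 1.28 ± 0.14, 1.24 ± 0.03 and 1.24 ± 0.00 in DNMT_KO, and 0.85 ± 0.11, 1.47 ± 0.11 and 1.23 ± 0.15 in DNMT_WT.

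A list of genes of the corepressor path that KRAB zinc finger proteins act through, with the zinc finger genes Zfp568 and Zfp708 added, did not pass either. Zfp708 is also on the zinc finger list, so the 2 lists are not fully separate. A start was placed for 15 of 16, Zfp568 being the exception. Trim28 (2.34 log2 RPKM), the HP1 genes Cbx3 (2.12) and Cbx5 (2.09) and the histone chaperone gene Daxx (1.93) had high promoters, while Setdb1 stood at -0.36 and Zfp708, which lies in the chromosome 13 window, at -0.95. Each gene was read at its outermost annotated start only, so a low value does not show that any other start was low. In each of the 14 contrasts 0 of the 15 were called by limma, with 0 to 4 at an unadjusted p under 0.05. With 0.000694% to 2.39% of all tested tiles called in these contrasts, that is near the background too.

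TET_KO cells had lower accessibility than TET_WT cells in a few tiles of the chromosome 13 window, nearly all between 65400001 and 66800000. Of the 276 tiles tested in the windows, 5 were lower and 0 higher at D0, 5 lower and 2 higher at D1, and 5 lower and 0 higher at D2. Of all tested tiles, 0.178% were called at D0, 0.112% at D1 and 0.111% at D2, and 0.101%, 0.059% and 0.0909% were called lower. All of the calls lay on chromosome 13. Reads are given here as recovered; the TET_WT libraries were deeper than the TET_KO libraries at D0 (6034132 to 9838632 reads on autosomes and X in TET_KO, against 10349075 to 23682696 in TET_WT), which RPM and the log2 changes take into account.

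The largest was the promoter tile of Gm40987, a long non-coding RNA (chr13:65990001-65992000). At D0 it held 2, 0 and 3 reads in TET_KO against 87, 43 and 68 in TET_WT, at D1 7, 2 and 2 against 51, 34 and 24, and at D2 2 and 8 against 35, 44 and 41. That is 0.23 ± 0.25 RPM in TET_KO against 4.48 ± 1.01 in TET_WT at D0, 0.52 ± 0.30 against 4.58 ± 1.26 at D1 and 0.47 ± 0.24 against 3.98 ± 1.15 at D2. The groups were apart on each day, and the DNMT_KO and DNMT_WT libraries held 11 to 20 and 8 to 31 reads. The log2 changes were -4.30 ± 0.41, -3.04 ± 0.41 and -3.22 ± 0.45 (SE; adjusted p = 3.37e-10, 8.97e-06 and 4.18e-05, limma). Calls at D0 and D1 held under all 13 alternatives, and that at D2 was lost with reads thinned to the shallowest library (adjusted p = 0.0991).

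The promoter tile of 2410141K09Rik, a protein-coding gene (chr13:66440001-66442000), held 1, 1 and 4 reads in TET_KO against 41, 14 and 33 in TET_WT at D0, 4, 1 and 0 against 19, 15 and 15 at D1, and 1 and 5 against 17, 25 and 25 at D2. In RPM these are 0.30 ± 0.31 against 1.94 ± 0.71, 0.21 ± 0.25 against 2.09 ± 0.18 and 0.27 ± 0.18 against 2.22 ± 0.74, with no overlap. Its changes were -2.67 ± 0.54, -3.20 ± 0.54 and -3.19 ± 0.61 (limma adjusted p = 0.0137, 0.00131 and 0.00702). The D0 call was lost without TET_KO replicate 1 or 2 or any 1 of the 3 TET_WT libraries, and the D2 call without TET_KO replicate 1. As this promoter shares sequence with 14 others, its reads may come from more than 1 place.

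From 66698001 to 66718000 a group of tiles at Gm40988 and Gm52033, neighbouring long non-coding RNAs on the plus strand, was lower as well. The tile at the far end of Gm40988 (chr13:66710001-66712000) held 10, 11 and 11 reads in TET_KO against 83, 36 and 56 in TET_WT at D0, 10, 12 and 8 against 60, 46 and 36 at D1, and 8 and 7 against 53, 71 and 78 at D2. In RPM these are 1.45 ± 0.41 against 3.87 ± 0.66, 1.54 ± 0.27 against 6.03 ± 1.20 and 0.88 ± 0.46 against 6.64 ± 1.86, again with no overlap. Its changes were -1.50 ± 0.34, -1.84 ± 0.34 and -3.10 ± 0.38 (limma adjusted p = 0.0329, 0.00326 and 9.64e-07). The D0 call was lost without TET_KO replicate 1 or 2 or any TET_WT library, the D1 call without TET_WT replicate 1, and the D2 call held under all 12 alternatives. The Gm52033 promoter tile (66714001 to 66716000) held 12, 13 and 9 reads in TET_KO against 104, 53 and 62 in TET_WT at D0 (1.504 ± 0.291 and 4.88 ± 0.42 RPM) and fell at D0 (-1.84 ± 0.36) and D1 (-1.88 ± 0.36; limma adjusted p = 0.008 and 0.0053). The next tile fell at D0 (-2.16 ± 0.45, limma adjusted p = 0.019), and a tile inside Gm40988 and Vmn2r-ps106 (66698001 to 66700000) at D1 (-1.99 ± 0.34, limma adjusted p = 0.00131). Single libraries carried some of these calls, which were lost without TET_WT replicate 1 or 2 (Gm52033 promoter and the next tile at D0), TET_KO replicate 1 or 2 (the next tile), TET_KO replicate 3, TET_WT replicate 1 or 3 (Gm52033 promoter at D1) or TET_KO replicate 1 (66698001 at D1).

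The other D2 calls rested on few reads. A tile inside Gm45966 and Gm19117 (66590001 to 66592000) held 1 and 9 reads in TET_KO against 27, 20 and 27 in TET_WT (-2.80 ± 0.56, limma adjusted p = 0.0131; lost without TET_KO replicate 1 or TET_WT replicate 1 or 3). An intergenic tile 1.41 kb from Gm7762 (65350001 to 65352000), the only call outside the 65400001 to 66800000 stretch, held 4 and 3 reads against 28, 16 and 17 (-2.51 ± 0.54, limma adjusted p = 0.0303; lost without TET_KO replicate 3 or TET_WT replicate 1 or 2). Both rises at D1 lay in promoter tiles that were empty at D0 and D2, Gm46428 (66518001 to 66520000; 14, 6 and 6 reads in TET_KO against 0, 4 and 1 in TET_WT; 2.47 ± 0.35, limma adjusted p = 2.79e-05) and Gm40989 (66752001 to 66754000; 5, 4 and 2 reads against 0, 0 and 0; 2.12 ± 0.25, limma adjusted p = 3.94e-07). Both promoters belong to the set that shares sequence with 2410141K09Rik (78.9% and 68.1% of 31-base words shared), and both calls were lost with thinned reads. The fold of Gm40989, with TET_WT at 0, depends on the value given to an empty tile and is no measure of size. The error of a tile was estimated over all groups together. At both tiles the D0 and D2 libraries were empty and so added little spread, and the SE and p of both rises may be too small.

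**Figure D3:**
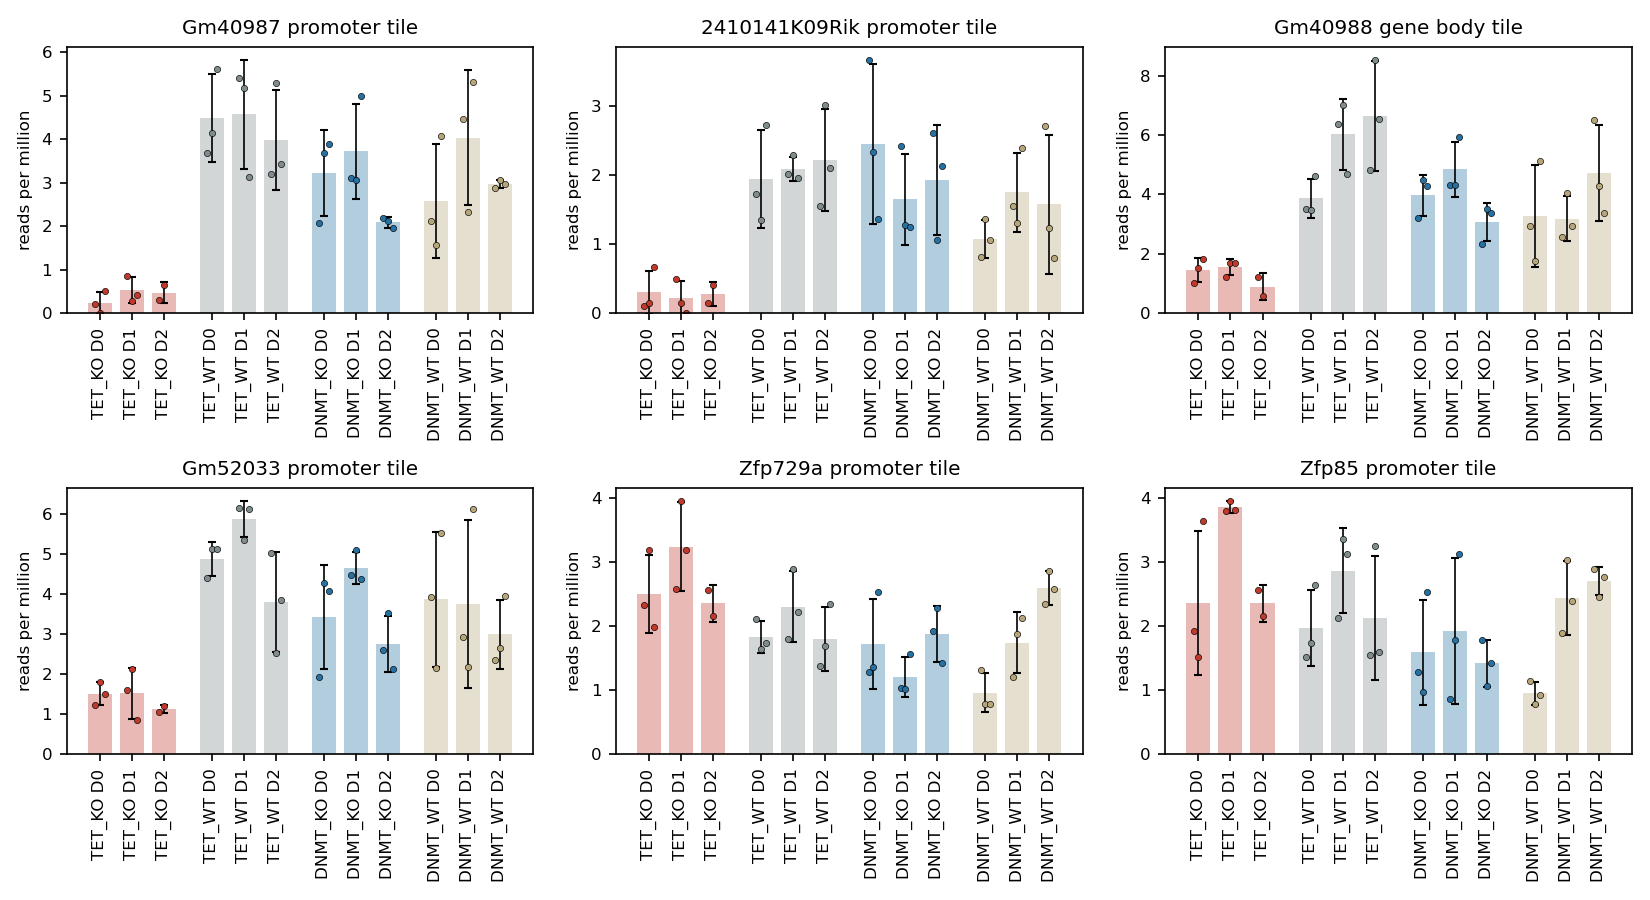
RPM in 6 tiles of the chromosome 13 window in the 12 groups of line and day (bars, mean; error bars, SD; points, libraries; bars of error below 0 are not drawn). In the Gm40987, 2410141K09Rik, Gm40988 and Gm52033 tiles the TET_KO libraries lie below the TET_WT libraries, and in the Zfp729a and Zfp85 tiles DNMT_WT is higher at D2 than at D0.

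Summed over larger regions, the lower accessibility in TET_KO filled 1 continuous stretch. Reads were summed in bins of 200 kb, a size chosen after the tile values were seen, over the tiles with reads at D0 or D2. From 65600001 to 66800000 on chromosome 13, 6 bins in a row were lower in TET_KO on every day. At D0 their log2 changes ran from -1.40 ± 0.20 (66200001 to 66400000) to -0.82 ± 0.205 (66400001 to 66600000), at D1 from -1.50 ± 0.20 to -0.89 ± 0.205, and at D2 from -1.59 ± 0.26 to -1.15 ± 0.30 (limma adjusted p at most 0.0106). At D2 the bin before them (65400001 to 65600000) was lower too (-0.999 ± 0.242, limma adjusted p = 0.00513). Of all 12730 bins of the genome, 7.2% were called lower at D0, 7.6% at D1 and 5.51% at D2. Ranked from the lowest change, the 6 bins stood at 2 to 19 at D0 and 1 to 12 at D1, and the 7 at 1 to 13 at D2. The left edge was graded at D0 and D1. The bin 65400001 to 65600000 stood at -0.57 ± 0.22 and -0.53 ± 0.22 there (limma adjusted p = 0.0663 and 0.115; called by voom on both days), and the bin before it (65200001 to 65400000) at 0.20 ± 0.11 on both. On the right the bin 66600001 to 66800000 stood at -1.08 ± 0.16 at D0 and the next (66800001 to 67000000) at -0.12 ± 0.13. Without the highest 10% of tiles 1 call was lost at D0 (65800001 to 66000000; -0.45 ± 0.27, limma adjusted p = 0.271) and 1 at D1 (66600001 to 66800000; -0.46 ± 0.19, limma adjusted p = 0.126). All 6 calls held without any 1 library at D0 and D1, and at D2 4 of 7 were left without TET_KO replicate 1, 5 without TET_KO replicate 3 and 6 without TET_WT replicate 3.

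**Figure D4:**
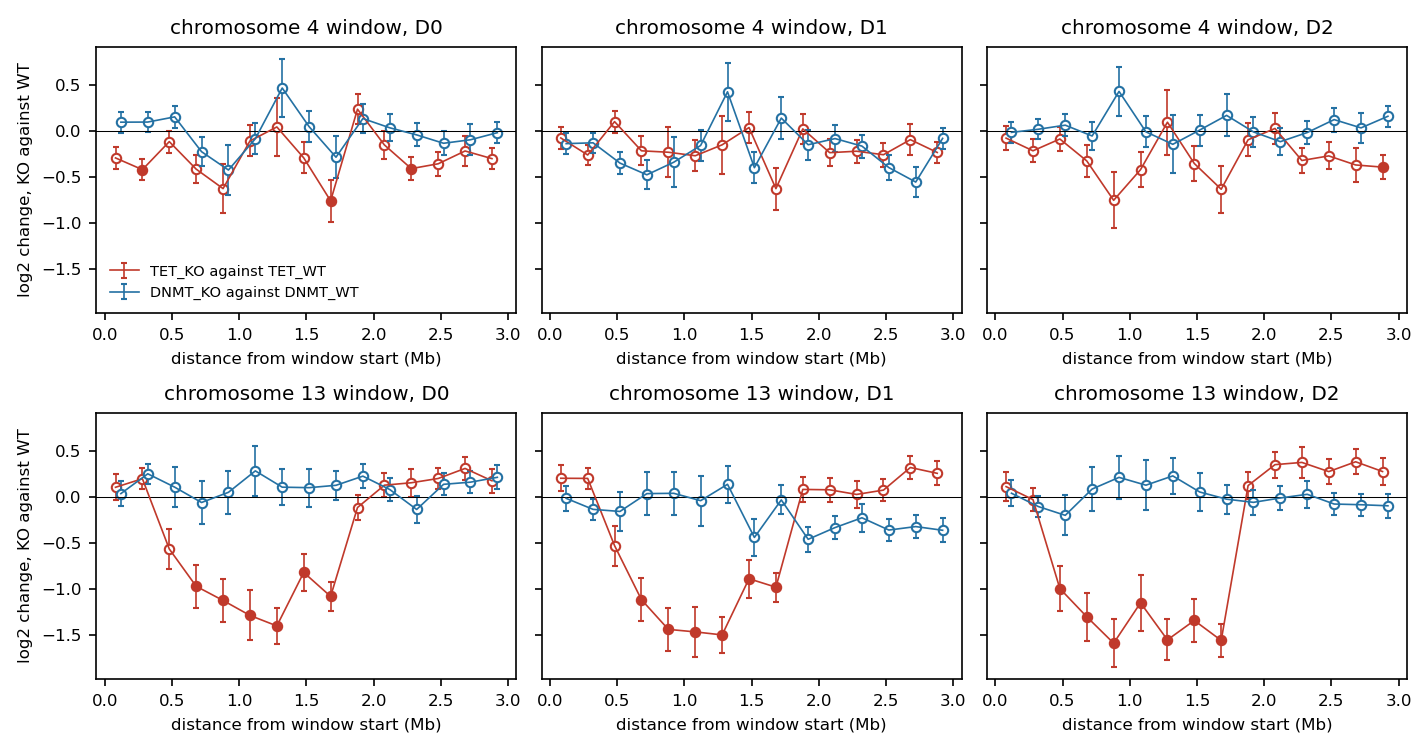
Log2 change of summed reads in 200-kb bins (points; error bars, SE) against the distance from the start of the window in Mb, for TET_KO against TET_WT and DNMT_KO against DNMT_WT, on the chromosome 4 (top) and chromosome 13 (bottom) windows at D0, D1 and D2. Filled circles have an adjusted p under 0.05 and open circles do not; TET_KO drops to between -0.82 and -1.59 in 6 bins of chromosome 13 on each day, while DNMT_KO has no filled circle.

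The stretch from 65400001 to 66800000 is described here without a test, since it was chosen from the bins. It held 700 tiles, of which 264 had reads at D0 or D2 and 436 did not, and among the zinc finger list only Zfp640 had its start there. Over the 264 tiles TET_KO held 54.7, 50.8 and 49.2 RPM against 102.0, 106.5 and 103.0 in TET_WT at D0, 58.3, 61.3 and 54.8 against 135.0, 114.5 and 110.5 at D1, and 41.5 and 46.4 against 118.3, 111.7 and 117.2 at D2. TET_KO and TET_WT did not overlap on any day. DNMT_KO held 85.3 ± 6.0, 87.8 ± 11.3 and 91.7 ± 5.4 and DNMT_WT 79.5 ± 9.1, 90.1 ± 9.7 and 89.4 ± 9.5 at D0, D1 and D2. The rest of the window went the other way, with 571.1 ± 53.7, 605.9 ± 38.9 and 608.4 ± 24.0 in TET_KO against 514.7 ± 10.3, 544.3 ± 25.4 and 518.5 ± 17.6 in TET_WT.

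The difference in the stretch was not limited to open tiles. In the 9 tiles among the highest 10% of the genome TET_KO held 9.7, 8.9 and 8.3 RPM at D0, D1 and D2 against 26.6, 31.5 and 29.8 in TET_WT, and in the other 255 it held 41.8, 49.3 and 35.6 against 77.2, 88.5 and 86.0. Ratios of single tiles varied, but a tile needed only 20 reads over both lines, so counting noise adds to this spread. Whether tiles differed in their change was not tested. Of 86 tiles with at least 20 reads over TET_KO and TET_WT together at D0, 49 had under 50% of the TET_WT level in TET_KO, 23 had between 50% and the level itself and 14 were at or above it, with a median ratio of 0.434. The median ratio was 0.475 over 55 tiles at D1 and 0.305 over 62 at D2. For DNMT_KO against DNMT_WT it was 1.02, 1.02 and 0.948 over 34, 32 and 40 tiles. In the 436 tiles of the stretch without reads at D0 and D2, the D1 level was 53.3 ± 3.7 in TET_KO and 46.9 ± 6.8 in TET_WT. The number of copies of this sequence in each line was not measured here, and fewer copies and less accessible copies cannot be told apart.

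Over the whole 3-Mb windows TET_KO was lower on chromosome 4 at D0 and did not differ detectably on chromosome 13. The chromosome 4 window held 631.4 ± 38.3, 704.0 ± 34.7 and 646.2 ± 30.5 RPM at D0, D1 and D2 in TET_KO and 775.7 ± 63.6, 788.0 ± 77.8 and 767.4 ± 10.997 in TET_WT (SD). The log2 change was -0.30 ± 0.09 at D0 (limma adjusted p = 0.0189 over 846 windows), -0.16 ± 0.09 at D1 (0.264) and -0.25 ± 0.10 at D2 (0.107). Of the 846 windows, 11.9% were called lower at D0, 10.9% at D1 and 8.63% at D2, so a call of this kind was not rare. The other 50 windows of chromosome 4 had a median of 0.06 at D0 and ran from -0.16 to 0.37. The call was lost without TET_KO replicate 3 (adjusted p = 0.109, limma), TET_WT replicate 1 (0.0678) or TET_WT replicate 2 (0.115). It was seen in gene body tiles (-0.31 ± 0.09, limma adjusted p = 0.0136; 10.9% of windows lower) and intergenic tiles (-0.29 ± 0.10, limma adjusted p = 0.0331; 10.8%), and promoter tiles gave -0.19 ± 0.15 (0.563). Both class calls were lost without the same libraries. In bins, 145200001 to 145400000 (-0.42 ± 0.11), 146600001 to 146800000 (-0.76 ± 0.23) and 147200001 to 147400000 (-0.41 ± 0.12) were called at D0, 0 of 15 at D1 by limma (3 at an unadjusted p under 0.05, 1 by voom), and 147800001 to 148000000 (-0.40 ± 0.13) at D2.

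The chromosome 13 window held 622.7 ± 56.3, 664.0 ± 41.4 and 652.4 ± 27.5 RPM in TET_KO and 618.5 ± 12.7, 664.3 ± 37.5 and 634.3 ± 20.6 in TET_WT, with changes of 0.01 ± 0.10, -0.00 ± 0.10 and 0.04 ± 0.11 (limma adjusted p = 0.973, 0.995 and 0.836). The lower stretch held 51.6 of the 622.7 RPM in TET_KO at D0, and 103.8 of the 618.5 in TET_WT.

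**Figure D5:**
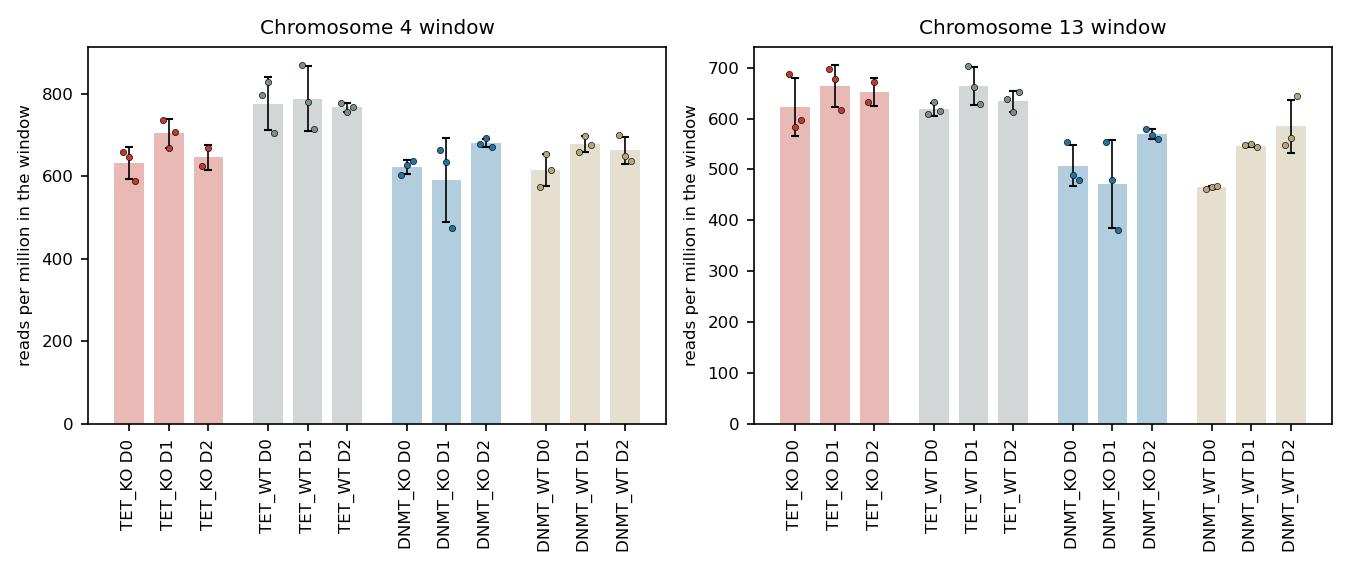
RPM summed over the chromosome 4 (left) and chromosome 13 (right) windows in the 12 groups of line and day, over tiles with reads at D0 or D2 (bars, mean; error bars, SD; points, libraries). On chromosome 4 TET_KO averages 631.4 and TET_WT 775.7 at D0, and on chromosome 13 622.7 and 618.5.

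DNMT_KO cells differed little from DNMT_WT cells in the windows. Of the 276 tiles, 0 were called at D0, 1 at D1 and 0 at D2 (0.000694%, 0.0194% and 0.0298% of all tested tiles), with 22, 41 and 17 at an unadjusted p under 0.05 and 0 called by limma voom on each day. The D1 call was the promoter tile of Gm26715 (66348001 to 66350000), which was empty at D0 and D2 and held 3, 4 and 3 reads in DNMT_KO against 0, 0 and 2 in DNMT_WT (2.07 ± 0.36, limma adjusted p = 0.00986). The groups overlapped in RPM, and the call was lost without DNMT_WT replicate 1 or 2. Its SE and p may also be too small, as the empty D0 and D2 libraries added little spread to the shared error. The 3-Mb sums changed by 0.02 ± 0.09, -0.21 ± 0.09 and 0.04 ± 0.09 on chromosome 4 and by 0.12 ± 0.10, -0.23 ± 0.10 and -0.04 ± 0.10 on chromosome 13 at D0, D1 and D2, none of them called. Of the 30 bins 0 were called on any day (limma; 1, 11 and 0 at an unadjusted p under 0.05; voom 0), against 0%, 0.377% and 0% of all bins. DNMT_KO replicate 3 at D1 was low, with 473.7 RPM on chromosome 4 and 46.8% mitochondrial reads, while without DNMT_KO replicate 1 both D1 sums were called lower (-0.30, adjusted p = 0.0473, and -0.35, adjusted p = 0.0198, limma) and 8 bins with them.

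The TET_KO and DNMT_KO differences were set against each other directly in 1 test at D0 and 1 at D2. Each difference was taken within its family, and the 2 families differed in processing on these days. At D0 the Gm40987 promoter tile differed (-4.54 ± 0.57, limma adjusted p = 7.46e-06), 1 of the 276 tiles against 0.0118% of all tested tiles. At D2 the Gm40988 tile at 66710001 did (-2.54 ± 0.50, limma adjusted p = 0.0217), again 1 against 0.0527%, and that call was lost without TET_KO replicate 3, TET_WT replicate 1 or 3 or DNMT_KO replicate 2. Of the 30 bins, 6 were lower at D0 and 7 at D2, of which 5 and 6 lay in the chromosome 13 stretch, against 3.72% and 3.81% of all bins. At D0 3 bins were left without TET_KO replicate 3, without TET_WT replicate 1 or without DNMT_WT replicate 1, and at D2 4 without TET_KO replicate 1.

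Between D2 and D0, 12 tiles of the windows were called in at least 1 line. The first 400 kb of the chromosome 4 window held 6 of them, but tested tiles were also dense there. Its 200-kb bins held 9 and 36 tiles of the highest 10%. At zinc finger genes lay 4, and the share of tested tiles at such genes was not counted. In TET_KO 2 of 276 were called (1 higher, 1 lower), in TET_WT 3 (all lower), in DNMT_KO 0 and in DNMT_WT 9 (6 higher, 3 lower), or 0.725%, 1.09%, 0% and 3.26%, against 1.14%, 0.979%, 2.39% and 2.25% of all tested tiles. The DNMT_KO count had 31 at an unadjusted p under 0.05 and 0 by voom. The knockout line and its parent did not differ detectably in this change: 0 tiles were called for the TET family (11 unadjusted, 0 by voom; 0.00139% of all tiles) and 0 for the DNMT family (25 unadjusted, 0 by voom; 0.000694%).

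Vps13d, which encodes a lipid transfer protein, held tiles of both directions. The tile at 145006001 held 7 and 6 reads at D2 against 32, 15 and 13 at D0 in TET_KO (-1.997 ± 0.50, limma adjusted p = 0.0233) and 4, 4 and 4 against 14, 17 and 18 in DNMT_WT (-1.72 ± 0.44, limma adjusted p = 0.0205). The tile at 145104001 held 43 and 70 reads at D2 against 10, 9 and 7 at D0 in TET_KO (2.41 ± 0.49, limma adjusted p = 0.00288) and 9, 10 and 7 against 4, 3 and 0 in DNMT_WT (2.20 ± 0.44, limma adjusted p = 0.0013). The tile at 145034001 held 15, 24 and 9 against 5, 2 and 0 in DNMT_WT (3.10 ± 0.45, limma adjusted p = 1.05e-05) and was not lost without any 1 library. In each of these the D2 libraries did not overlap those at D0, in reads or in RPM. As the tiles were picked by a test on these libraries, that adds no support. Leaving out 1 library ended the TET_KO calls (replicate 1 at D0 or replicate 3 at D2 for 145006001, and replicate 1 or 3 at D2 for 145104001) and the DNMT_WT calls at 145006001 (replicate 2 at D0, or 1 or 3 at D2) and 145104001 (replicate 3 at D0).

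In TET_WT the falls were at the promoter of the predicted Gm36233 (145264001; 14, 11 and 6 reads at D2 against 75, 31 and 38 at D0, or 1.04 ± 0.46 and 3.10 ± 0.09 RPM; -1.97 ± 0.48, limma adjusted p = 0.0229), inside Tnfrsf8, the gene of the CD30 receptor (145300001; 9, 7 and 13 against 66, 29 and 39, or 0.92 ± 0.15 and 2.94 ± 0.25 RPM; -1.90 ± 0.44, limma adjusted p = 0.0128), and in an intergenic tile 14.7 kb from 2510039O18Rik (147962001; 7, 7 and 9 against 49, 21 and 24, or 0.75 ± 0.10 and 2.03 ± 0.04 RPM; -1.72 ± 0.46, limma adjusted p = 0.0479). With any 1 of the 6 TET_WT libraries left out, at most 1 of the 3 was called.

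In DNMT_WT 2 zinc finger promoters of chromosome 13 rose. Zfp729a (chr13:67636001-67638000) held 13, 14 and 13 reads at D2 against 8, 4 and 6 at D0 (2.60 ± 0.26 and 0.96 ± 0.30 RPM; 1.56 ± 0.36, limma adjusted p = 0.00659). Zfp85 (67754001 to 67756000) held 16, 12 and 14 against 7, 4 and 7 (2.71 ± 0.22 and 0.95 ± 0.18; 1.62 ± 0.39, limma adjusted p = 0.0107). At both promoters all 3 D2 libraries were above all 3 D0 libraries. In the TET lines Zfp729a held 2.36 ± 0.29 RPM at D2 and 2.504 ± 0.616 at D0 in TET_KO, and 1.80 ± 0.50 and 1.83 ± 0.25 in TET_WT. Zfp729a and Zfp85 were 2 of the 37 zinc finger promoters, with 0.55% of all promoter tiles called higher, and the median change over the 37 was 0.42, against 0.06 for protein-coding genes, with 27 higher. Among them 8 had an unadjusted p under 0.05, all higher and on chromosome 13, among them Zfp712 (0.91 ± 0.33, adjusted p = 0.148). Both calls were lost with reads thinned to 1 depth and with voom, and that of Zfp85 without DNMT_WT replicate 2 at D0. The median change over the 37 was 0.00 in TET_KO, -0.09 in TET_WT and 0.00 in DNMT_KO, and 0 of the 37 were called in each (limma; 1, 2 and 3 at an unadjusted p under 0.05). The difference of DNMT_KO from DNMT_WT in this change had a median of -0.29, lower in 29 of 37, with 0 called and 8 at an unadjusted p under 0.05 (limma). Both this difference and the DNMT_WT rise use DNMT_WT at D0, where the median zinc finger promoter held 0.85 RPM, the lowest of the 12 groups. It held 1.23 in DNMT_WT at D2, and 1.28 and 1.24 in DNMT_KO at D0 and D2.

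The other DNMT_WT calls were the Olfr466 promoter, an olfactory receptor gene (65152001; 7, 2 and 4 reads at D2 against 3, 0 and 0 at D0; 1.94 ± 0.53, limma adjusted p = 0.0316), and a tile in 4930525G20Rik and Zfp273 (67814001; 9, 6 and 11 against 4, 5 and 3; 1.40 ± 0.40, limma adjusted p = 0.048), both higher, and a tile inside Zfp985 (147578001; 1, 3 and 4 against 13, 14 and 12; -2.06 ± 0.56, limma adjusted p = 0.0308) and an intergenic tile (145376001; 4, 2 and 10 against 18, 15 and 26; -1.83 ± 0.51, limma adjusted p = 0.0347), both lower. Single libraries ended each of these calls, DNMT_WT replicate 2 or 3 at D0 or 1 or 3 at D2 for Olfr466, replicate 1 or 3 at D0 or at D2 for 67814001, replicate 1 or 2 at D0 or 1 at D2 for 147578001, and any replicate at D0 or 1 or 2 at D2 for 145376001. The Olfr466 call was not kept when tiles empty at D0 and D2 were left out (adjusted p = 0.0868, limma), and its D2 and D0 libraries overlapped in reads. The chromosome 13 window as a whole held 584.9 ± 52.5 RPM at D2 against 465.1 ± 2.5 at D0 in DNMT_WT (0.33 ± 0.10, limma adjusted p = 0.105) and the 2 bins 65200001 to 65400000 (0.47) and 67600001 to 67800000 (0.52) were called higher, against 0.848% of all bins. Both bin calls were lost without the highest 10% of tiles, and without DNMT_WT replicate 1 or 3 at D0 or replicate 3 at D2, and 1 was left without replicate 2 at D2.

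Intergenic tiles held fewer reads than promoter tiles. Per tile with reads at D0 or D2, intergenic tiles of chromosome 13 held 0.52 RPM in TET_KO and 0.52 in TET_WT at D0, and 0.43 in DNMT_KO and 0.41 in DNMT_WT, against 0.69 to 0.71 over all such tiles of the genome. On chromosome 4 the values were 0.67, 0.82, 0.73 and 0.70. Promoter tiles held 1.64, 1.87, 1.45 and 1.30 RPM on chromosome 4 and 1.75, 1.67, 1.46 and 1.20 on chromosome 13 in the same order of lines, against 2.09 to 2.36 over all promoters. The most accessible intergenic tiles were chromosome 13 from 65258001 to 65260000, 17.2 kb from Zfp369 (1.01 log2 RPKM), and chromosome 4 from 147398001 to 147400000, 5.97 kb from Zfp978 (0.69). The first held 3.85, 4.61 and 4.14 RPM at D0, D1 and D2 in TET_KO, 2.72, 4.22 and 3.93 in TET_WT, 2.96, 2.90 and 2.49 in DNMT_KO and 2.73, 2.76 and 3.41 in DNMT_WT. The second held 2.34, 2.95 and 2.03 in TET_KO, 2.15, 2.91 and 2.95 in TET_WT, 2.53, 3.02 and 3.26 in DNMT_KO and 2.23, 2.74 and 3.29 in DNMT_WT. Neither was called in any contrast.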

How the data were processed

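ATAC-seq was measured in 35 libraries of 12 groups, 3 per group and 2 for TET_KO at D2. The authors deposited 1 table of log2 RPKM values in 2-kb tiles, per the file headers. Per the submitters' processing notes, Trim Galore 0.6.5, cutadapt 2.3, Bowtie2 2.4.1 and GRCm38 were used; how duplicates and reads with several matches were handled is not stated there. The values were whole reads within 0.01 read, an empty tile standing for 0.9 read, and reads were recovered from them. The total behind RPKM differed between D1 and the other days and, at D0 and D2, between the TET and DNMT families. D1 was therefore not tested against another day, nor 1 parental line against the other. The test of the TET_KO difference against the DNMT_KO difference does join the 2 families, with each difference taken within its family. All 35 libraries were normalised and fitted together.

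Tiles were fitted with limma 3.58.1 (R 4.3.3, trend) on quantile-normalised log2 RPKM in 1 model over all groups (23 residual degrees of freedom). Tested were 144184 tiles: the highest 10% of autosomes and X by the mean of group means, and every tile with a RefSeq start. Windows of 3 Mb and bins of 200 kb (at least 10 tiles) were fitted as log2 sums of RPM, without tiles empty at D0 and D2; bins were chosen after the data were seen. Tests were 2-sided, and a call is a Benjamini-Hochberg adjusted p under 0.05 over all features. Errors of log2 changes are SE and those of levels SD; permutation tests were exact. Gene names, starts and promoter sequences are from RefSeq (GRCm38.p6), and shared sequence was counted as 31-base words found on either strand in any other RefSeq promoter, without promoters overlapping on the genome. Where RefSeq gave several starts, the level of a gene was read at its outermost 5′ start. The named tiles are the 10 highest zinc finger promoters, up to 5 promoter and 5 other called tiles of largest change per contrast, and the most accessible intergenic tile of each window. Called tiles were picked by tests on the same libraries, so groups that do not overlap in them add no support to the calls. Members and lists were chosen with earlier results of these data known. Python 3.11.15, numpy 2.4.6 and pandas 2.3.3 were used, voom (limma) on recovered reads with trimmed-mean (TMM) scaling was an alternative, and the fits were tested on simulated data. No pair of replicates agreed within sampling noise (chi-square per degree of freedom 1.12 to 3.86). PCR reads without molecular identifiers are not independent molecules, so read counts carry more than counting error.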

Additional observations from a re-analysis of the deposited data

Results flagged for a closer look

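Results were looked at again where the TET_KO difference and the DNMT_KO difference were themselves found to differ (limma, adjusted p under 0.05 on the difference of the log2 changes). Among tiles these were the Gm40987 promoter at D0, with a difference of -4.54, and the end of Gm40988 at 66710001 at D2, with -2.54. Among 200-kb bins of chromosome 13 at D0, the differences were -1.18 (65800001 to 66000000), -1.57 (66000001 to 66200000), -1.51 (66200001 to 66400000), -0.92 (66400001 to 66600000) and -1.21 (66600001 to 66800000). At D2 they were -1.39 (65600001 to 65800000), -1.80 (65800001 to 66000000), -1.28 (66000001 to 66200000), -1.78 (66200001 to 66400000), -1.40 (66400001 to 66600000) and -1.54 (66600001 to 66800000). On chromosome 4 the bin 145200001 to 145400000 differed at D0 (-0.52) and the bin 147800001 to 148000000 at D2 (-0.55). In each, TET_KO stood lower against TET_WT than DNMT_KO against DNMT_WT. No group had more than 3 libraries, so single libraries were not tested against their group.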

How the results depend on the processing

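With reads thinned to 3204696 per library, tile calls numbered 1, 3 and 1 for TET_KO against TET_WT at D0, D1 and D2 (main 5, 7 and 5), 0 for DNMT_KO at D1 (main 1), and, for D2 against D0, 1 in TET_KO (main 2), 0 in TET_WT (main 3) and 0 in DNMT_WT (main 9), and 0 and 0 for the TET_KO and DNMT_KO differences set against each other at D0 and D2 (main 1 and 1). Values as deposited gave 2 and 2 for TET_KO at D0 and D2, 1 and 0 for D2 against D0 in TET_KO and TET_WT, and 0 for the D2 difference. Voom gave 2 for TET_KO at D2, 0 for DNMT_KO at D1, 5 in TET_WT, 1 in DNMT_WT and 0 for the D2 difference. The highest 5% of tiles gave 3 for TET_KO at D2, 1 in TET_KO and 5 in DNMT_WT between days. Without the filter on tiles, TET_KO had 107 calls at D1 (70 higher, 37 lower; main 2 higher, 5 lower) and 2 at D2, DNMT_KO 637 at D1 (597 higher, 40 lower; main 1 higher), and D2 against D0 1 in TET_KO, 0 in TET_WT, 1 in DNMT_KO and 3 in DNMT_WT, with 0 for the D2 difference. Each chromosome centred gave 2 and 3 for the differences at D0 and D2, log2 of reads plus 3 gave 2 at D0, and leaving out tiles empty at D0 and D2 gave 0 for DNMT_KO at D1 and 2 and 3 for the differences. The cause was not tested.

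Leaving out 1 library gave 1 to 5 tile calls for TET_KO at D0 and 3 to 5 at D2, 0 to 12 for DNMT_KO at D1, 1 to 3, 0 to 1, 0 to 3 and 4 to 10 for D2 against D0 in TET_KO, TET_WT, DNMT_KO and DNMT_WT, and 1 to 2 and 0 to 2 for the differences. The window sums ran from -0.36 to -0.24 (TET_KO, chromosome 4, D0), and for DNMT_KO at D1 from -0.30 to -0.062 (chromosome 4) and -0.35 to -0.086 (chromosome 13). Sums by class ran from -0.38 to -0.27 (gene body) and -0.37 to -0.20 (intergenic) for TET_KO on chromosome 4 at D0; for DNMT_KO at D1 from -0.33 to -0.064 and -0.43 to -0.11 (gene body, chromosomes 4 and 13) and -0.39 to -0.13 and -0.39 to -0.037 (intergenic). Bin calls ran from 4 to 8 for TET_KO at D2, 0 to 8 for DNMT_KO at D1, 0 to 3 for DNMT_WT between days, and 3 to 6 and 4 to 7 for the differences at D0 and D2. Voom called the chromosome 4 window in TET_KO at D2 (-0.31) and 15 bins at D0 (main 9). The promoter sum of chromosome 13 in DNMT_WT between days, 0.36 and not called (adjusted p = 0.993, limma), was called with promoters widened to the neighbouring tiles (0.40, adjusted p = 0.0114, limma). Without the highest 10% of tiles, bin calls were 1 for DNMT_KO at D1, 0 in DNMT_WT and 3 for the D0 difference. Of 348 other window values 342 and of 708 class values 697 kept their side of the threshold, and 35 and 68 values that were not called changed sign; of 443 named tile values 308 kept their side and 0 changed sign. Correlations of same-numbered libraries were low, from -0.13 to 0.16, and replicate numbers were not used as pairs in the main fit. Counting noise in shallow tiles lowers such correlations, so these values cannot decide whether replicates were paired. With the replicate number as a block, DNMT_KO at D1 had 2 tile calls and the D2 difference 3.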
